A study of Mus musculus with 4 samples.

Results

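The translation initiation factors are the proteins that bring ribosome, initiator tRNA and mRNA together at a start codon. In the table of 54446 mouse genes, 55 gene symbols start with Eif followed by a digit from 1 to 6, with Eif2ak2 and the pseudogenes marked "-ps" left out. These 55 members were sorted by name into eIF1 (5 genes), eIF2 (6), the eIF2 kinases (3), eIF2B (5), eIF3 (14), the eIF4A, eIF4B, eIF4G and eIF4H genes (8), eIF4E (4), the eIF4E-binding proteins (4), eIF5 (4) and eIF6 (1). Eif2c5 also matches by its symbol, but that name is an older one of the Argonaute family. It had 1, 1, 1 and 4 fragments in the 4 libraries and belongs to no initiation factor group here.

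RNA was sequenced from 4 libraries of mammary epithelial cells of wild type C57BL/6 mice. The cells had been sorted as basal or luminal and grown in 3D Matrigel culture with either DMSO or 100 μM baicalin, a plant flavone glucuronide, which gave 1 library for each combination of cell label and treatment. The study's methods give an age range in weeks for the female mice, virgin or at other stages, that served for cell isolation in general, and do not say which mice, or how many mice or cultures, gave each library. With 1 library per condition there is no replicate check and no p-value, so every difference below is one between 2 libraries. Whether the change with baicalin differs between cell labels was likewise not tested.

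Initiation starts when eIF2, loaded with GTP and the initiator tRNA, joins the small ribosomal subunit together with eIF1, eIF1A, eIF3 and eIF5. The mRNA is brought in by eIF4F, which is made of the cap-binding protein eIF4E, the scaffold eIF4G and the helicase eIF4A. A pair of brakes acts on these steps. The eIF2 kinases phosphorylate the alpha subunit of eIF2, which blocks its recycling by the exchange factor eIF2B, and the eIF4E-binding proteins hold eIF4E away from eIF4G until mTORC1 phosphorylates them. Mammary epithelium leans on this machinery in lactation, when it makes large amounts of milk protein. The values here are mRNA levels, and neither phosphorylation nor translation was measured.

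Levels are given as FPKM (fragments on a gene per kilobase of its exons, scaled to the counted fragments), so they can be set side by side between genes. A total of 19355955 to 20648872 fragments lay behind each library, and 1 fragment on 1 kilobase of exons was worth 0.0484 to 0.0517 FPKM. The log2 changes below are of FPKM + 1, on the 17787 genes above 0 in all 4 libraries, and this scale understates the change of low genes. Ratios are of FPKM itself, and their 95% intervals are exact Clopper-Pearson intervals from the fragments that cover counting error only.

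The basal and the luminal marker lists ran against the cell labels. Of 12 basal markers, 11 were higher in the luminal-labelled than in the basal-labelled library under either treatment, and all 10 luminal markers were lower there. Krt5, a keratin of the basal layer, was at 128 FPKM in the basal-labelled DMSO library and at 2010 FPKM in the luminal-labelled one. Krt8, a luminal keratin, was at 1570 and 383 FPKM in the same libraries. Of 6 markers of hormone-sensing luminal cells, 3 were higher in the luminal-labelled library with DMSO (Esr1, Pgr and Foxa1) and 2, Pgr and Ly6a, with baicalin. The libraries are therefore called by their labels only. With DMSO and baicalin, the summed basal markers were at 2150 and 757 FPKM in the basal-labelled libraries and at 5680 and 7500 FPKM in the luminal-labelled ones, and the summed luminal markers at 4270 and 2960 FPKM and at 1250 and 1050 FPKM. The 6 fibroblast markers summed to 2.6 to 10.4 FPKM, the 6 immune markers to 1.01 to 9.21 FPKM, and the 5 endothelial markers to 0.874 to 3.31 FPKM. Ptprc, which marks blood cells and was among the immune markers, was at 0 to 0.0138 FPKM. Lyz2, the highest immune marker, was at 8.84 and 2.17 FPKM with DMSO and baicalin in the basal-labelled libraries. In the luminal-labelled ones it was at 0.903 and 2.61 FPKM. In such bulk samples, fewer cells of a type and less RNA per cell cannot be told apart, and the part of shifts in cell makeup in the values below was not tested.

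Nearly the whole set was expressed in every library. Of the 55 members, 53 were above 0 in all 4 libraries. The other 2, Eif4e1b, an eIF4E relative known from oocytes, and Eif2s3y, the Y-linked copy of the eIF2 gamma subunit, were listed at 0 in all 4. Among the 53, 47 had at least 5 FPKM in each library. The most abundant by mean level were the RNA helicase gene Eif4a1 (236 FPKM), Eif5a (223 FPKM) and the start codon selection factor gene Eif1 (213 FPKM). All members together summed to 3117 FPKM in the basal-labelled DMSO library, 3191 FPKM with baicalin, 2818 FPKM in the luminal-labelled DMSO library and 2895 FPKM with baicalin. With baicalin the sum was thus 1.02 times the DMSO level in the basal-labelled and 1.03 times in the luminal-labelled libraries, and each library put 0.951% to 1.13% of its total FPKM into these genes.

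**Figure D1:**
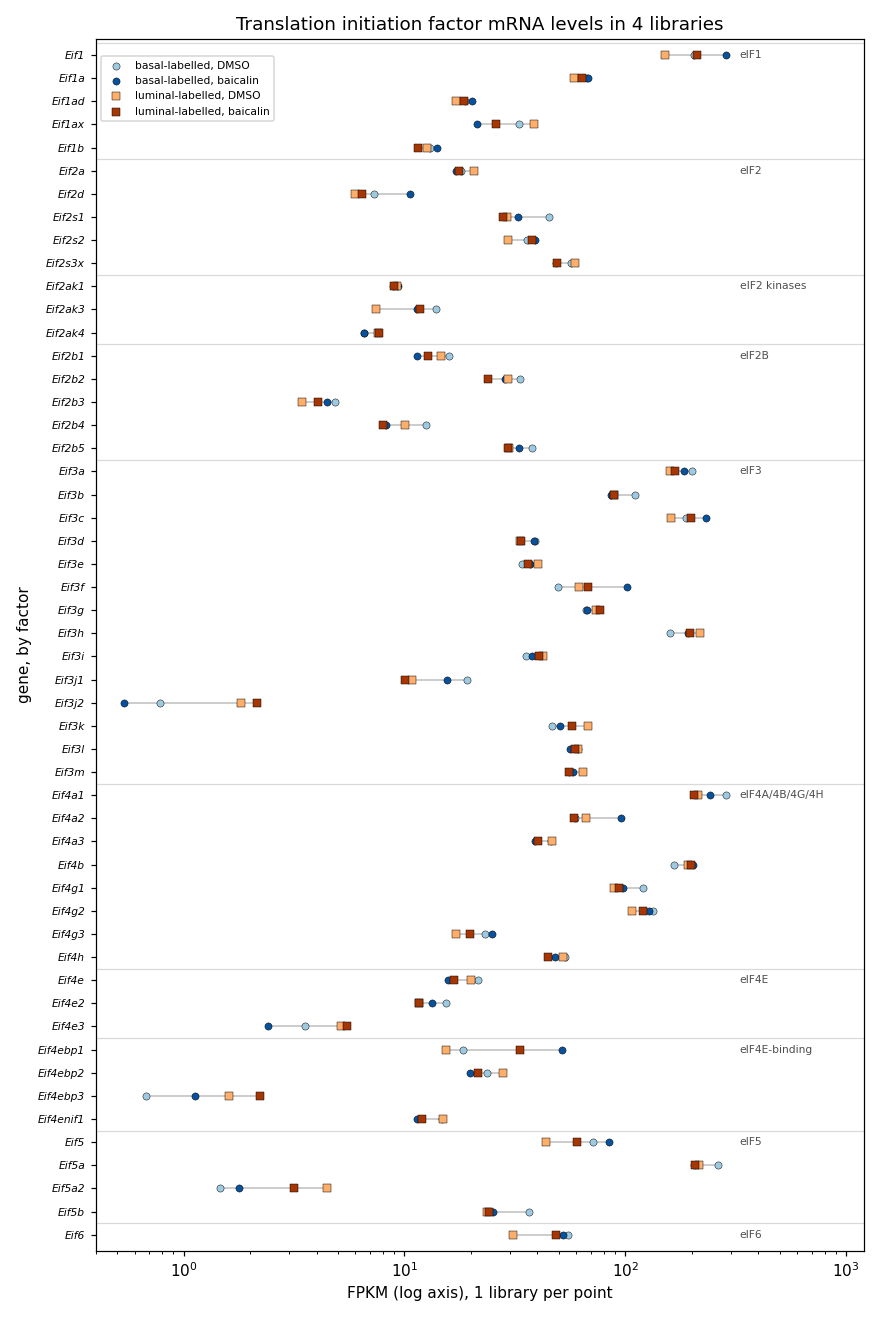
Level of each initiation factor gene, grouped by factor, in FPKM on a log axis, 1 point per library and circles for basal-labelled and squares for luminal-labelled cells, pale for DMSO and dark for baicalin. Most genes hold 4 points close together. Eif4ebp1, with 15.5 to 51.5 FPKM, is spread out, as are the low genes Eif3j2, Eif4ebp3, Eif5a2 and Eif4e3, and Eif3f, with 49.6 to 102 FPKM, comes next. Eif2c5 and the genes at 0 are not drawn.

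Baicalin was set against DMSO within each cell label to see which initiation factors differ with the treatment. In the basal-labelled libraries 2 of the 53 members were more than 2-fold higher with baicalin, Eif4ebp1 and Eif3f, while 2.15% of all genes tested were. No member was more than 2-fold lower, where 3.33% of all genes were. In the luminal-labelled libraries 1 member, again Eif4ebp1, was more than 2-fold higher, with 2.37% of all genes past that mark, and no member was more than 2-fold lower, with 1.59% of all genes past it. These counts are small, and 1 gene is 1.89% of the 53 members.

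At 1.5-fold on the FPKM + 1 scale, Eif4a2 joined the higher members and Eif1ax was the only lower one in the basal-labelled libraries. That made 3 higher and 1 lower, beside 7.24% and 7.78% of all genes. In the luminal-labelled libraries Eif2ak3, Eif4ebp1 and Eif6 were higher by that amount and no member was lower, beside 6.3% and 6.01% of all genes. The median log2 change of the members was -0.07 in the basal-labelled libraries, where that of all genes tested was 0.01. In the luminal-labelled libraries it was -0.01, beside -0.02 for all genes. The interquartile range of the members was 0.36 and 0.32 on the log2 scale, beside 0.41 and 0.37 for all genes. The initiation factors as a set therefore lay close to the middle of the transcriptome.

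The 2 baicalin libraries lay above both DMSO libraries for 6 of the 53 members, or 11.3%, beside 14.1% of all genes tested. These 6 were Eif1, Eif2s2, Eif3c, Eif3f, Eif4b and Eif4ebp1. Both baicalin libraries lay below both DMSO libraries for 14 members, or 26.4%, beside 17.2% of all genes. The 14 were Eif1ax, Eif2a, Eif2b1, Eif2b2, Eif2b4, Eif2s3x, Eif3b, Eif3l, Eif4a3, Eif4e, Eif4ebp2, Eif4enif1, Eif4h and Eif5a. The log2 changes of the 14 ran from -0.61 to -0.01, so none passed 2-fold. The counting intervals held 1 for Eif3b (0.961 to 1.03) and Eif3l (0.929 to 1.01) in the luminal-labelled libraries. The same was true of Eif2a (0.901 to 1.02) in the basal-labelled ones. For this rule no share was taken among genes of like level.

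**Figure D2:**
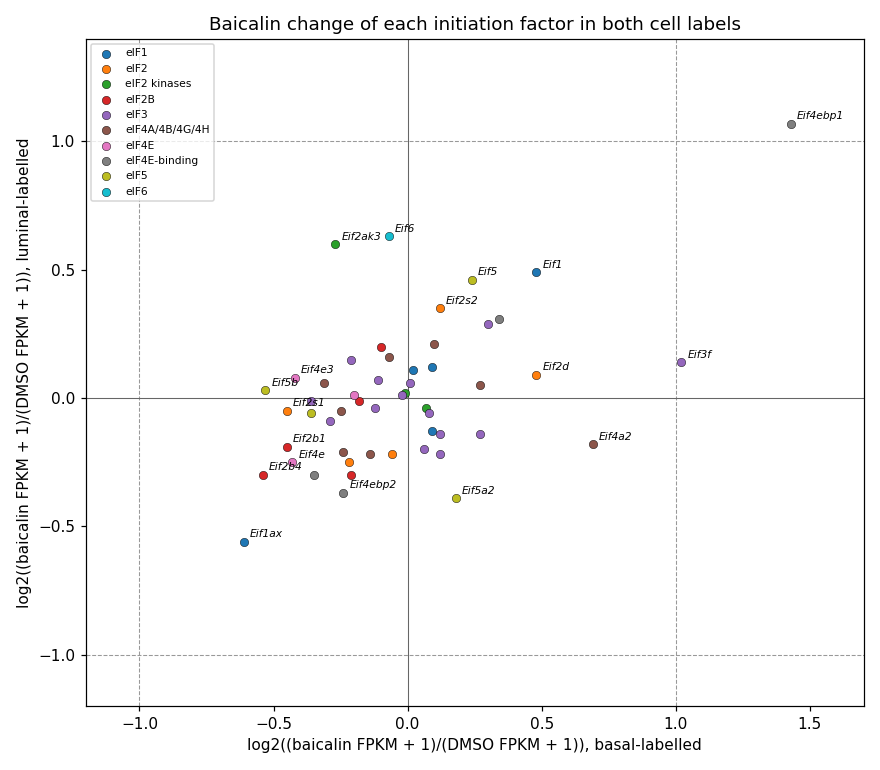
Log2 change with baicalin, log2((baicalin FPKM + 1)/(DMSO FPKM + 1)), in the basal-labelled libraries (horizontal axis) against the luminal-labelled libraries (vertical axis), 1 point per gene coloured by factor, with dashed lines at 2-fold. Eif4ebp1 stands alone past 2-fold in both, at 1.43 and 1.07, while Eif3f is past it in the basal-labelled libraries only, at 1.02 against 0.14.

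Among the eIF4E-binding proteins, Eif4ebp1 had the largest change of all members and its relative Eif4ebp2 was lower. Eif4ebp1 (ENSMUSG00000031490, GRCm38 chromosome 8, 27260329 to 27276674) encodes 4E-BP1, which competes with eIF4G for eIF4E. Its level was 18.4 FPKM with DMSO and 51.5 FPKM with baicalin in the basal-labelled libraries, and 15.5 and 33.5 FPKM in the luminal-labelled ones. Both baicalin libraries stood well above both DMSO libraries. The ratio was 2.79 (95% interval 2.57 to 3.03) in the basal-labelled and 2.17 (1.98 to 2.38) in the luminal-labelled libraries, so the lower bound in the latter fell just under 2. By level, Eif4ebp1 was at place 37 among the members with DMSO in both labels, and with baicalin at place 19 in the basal-labelled and 27 in the luminal-labelled libraries.

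Eif4ebp2 encodes 4E-BP2, a second inhibitor of the same kind. It was at 23.6 and 19.9 FPKM with DMSO and baicalin in the basal-labelled libraries and at 28.1 and 21.5 FPKM in the luminal-labelled ones. The ratios were 0.841 (0.795 to 0.889) and 0.766 (0.727 to 0.807), lower in both. Eif4ebp3, the third relative, rested on 10 to 34 fragments per library, and its intervals held 1 in both labels. Eif4enif1, whose product carries eIF4E into the nucleus and into RNA granules, was lower in both, with ratios of 0.77 and 0.8. The 4 genes together summed to 57.51 and 83.82 FPKM in the basal-labelled and 60.15 and 69.27 FPKM in the luminal-labelled libraries, so the higher level of Eif4ebp1 outweighed the lower levels of Eif4ebp2 and Eif4enif1.

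Eif4e, the cap-binding protein itself, was lower where its inhibitor's mRNA was higher. It was at 21.5 FPKM with DMSO and 15.7 FPKM with baicalin in the basal-labelled libraries and at 20.1 and 16.8 FPKM in the luminal-labelled ones. The ratios of 0.731 (0.689 to 0.776) and 0.832 (0.784 to 0.883) were both below 1, though neither passed 1.5-fold. The level of Eif4ebp1 relative to Eif4e, as a ratio of FPKM, was 0.857 with DMSO and 3.27 with baicalin in the basal-labelled libraries, and 0.768 and 2 in the luminal-labelled ones. The same ratio for Eif4ebp2 stayed between 1.1 and 1.4 in all 4 libraries.

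The other cap-binding relatives were less abundant. Eif4e2, whose product binds caps without promoting initiation, had ratios of 0.859 (0.809 to 0.912) and 1.01 (0.944 to 1.08). Eif4e3 was at 3.56 and 2.41 FPKM in the basal-labelled libraries and at 5.16 and 5.49 FPKM in the luminal-labelled ones, on 123 to 285 fragments. All 3 tested eIF4E genes were thus lower with baicalin in the basal-labelled libraries, where 49.1% of all genes were lower, with a median log2 change of -0.42 that was also below 0 under TPM and under centring, while in the luminal-labelled libraries 2 were slightly higher and 1 lower. Part of Eif4e3, 14.8% of its exon bases, lies in exons of Gm20696 on the same strand, so its fragments may be shared.

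**Figure D3:**
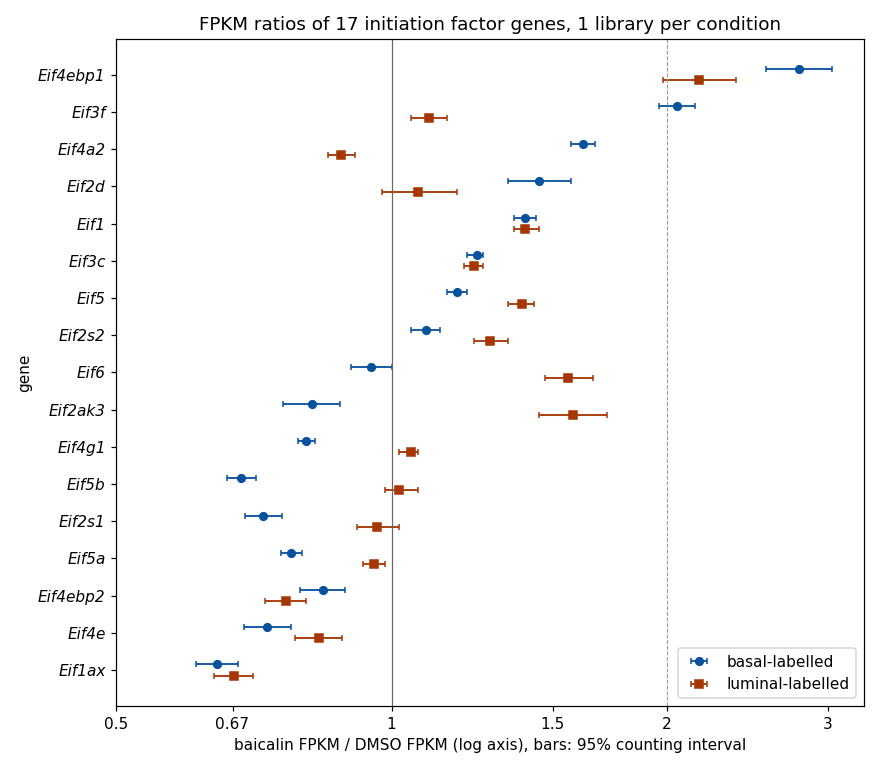
FPKM ratio of baicalin to DMSO on a log axis for 17 initiation factor genes, circles for basal-labelled and squares for luminal-labelled libraries, with bars for the 95% counting interval, which holds no variation between cultures. Eif4ebp1 is at 2.79 and 2.17 at the top and Eif1ax at 0.645 and 0.672 at the bottom, and Eif4a2 and Eif2ak3 lie on opposite sides of 1 in the 2 cell labels.

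The rest of eIF4F was mixed. The helicase gene Eif4a1 was at 286 and 241 FPKM with DMSO and baicalin in the basal-labelled libraries and at 213 and 205 FPKM in the luminal-labelled ones. Its paralog Eif4a2 was at 59 and 95.6 FPKM in the basal-labelled libraries and at 66.5 and 58.6 FPKM in the luminal-labelled ones. A single library, basal-labelled with baicalin, was thus high for Eif4a2, with a ratio of 1.62 (1.57 to 1.67), while the luminal-labelled ratio was 0.881 (0.851 to 0.911). The level of Eif4a2 relative to Eif4a1 was 0.206 and 0.397 with DMSO and baicalin in the basal-labelled libraries and 0.313 and 0.286 in the luminal-labelled ones. Eif4a3, which encodes the helicase of the exon junction complex, was lower in both labels, with ratios of 0.845 and 0.861.

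Eif4g1, the main scaffold of eIF4F, was at 121, 97.7, 89.2 and 93.3 FPKM in the basal-labelled DMSO, basal-labelled baicalin, luminal-labelled DMSO and luminal-labelled baicalin libraries. The basal-labelled DMSO library was the high one. Eif4g2, whose product lacks the eIF4E-binding part, was at 107 to 134 FPKM, and Eif4g3 was lower in level, at 17.2 to 24.9 FPKM. Eif4b, whose product stimulates the helicase, had ratios of 1.21 (1.18 to 1.24) and 1.03 (1.01 to 1.05), and Eif4h, a relative with the same role, had 0.904 (0.871 to 0.938) and 0.857 (0.825 to 0.89). Taken as sums, the 8 genes of this group held 890.3 and 876.5 FPKM in the basal-labelled libraries and 783.3 and 779.9 FPKM in the luminal-labelled ones, a ratio of 0.984 and 0.996.

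Turning to eIF2, the mRNAs of its 3 subunits did not share a direction. The alpha subunit gene Eif2s1, whose product is the target of the eIF2 kinases, was at 45.2 FPKM in the basal-labelled DMSO library and at 32.7, 29 and 28 FPKM in the others. The beta subunit gene Eif2s2 was at 35.8 and 38.9 FPKM with DMSO and baicalin in the basal-labelled libraries and at 29.6 and 37.9 FPKM in the luminal-labelled ones. The X-linked gamma subunit gene Eif2s3x was at 56.8 and 48.5 FPKM, and at 59 and 49.3 FPKM. Relative to DMSO, baicalin thus came with less Eif2s3x in both labels, with ratios of 0.855 and 0.836, with more Eif2s2 in both, with 1.09 and 1.28, and with less Eif2s1 in the basal-labelled libraries only, with 0.724 (0.692 to 0.758) against 0.965 (0.916 to 1.02). Whether the ratios of Eif2s1 differ between labels was not tested.

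Eif2d and Eif2a encode proteins that can deliver tRNA to the ribosome outside the eIF2 route. Eif2d was at 7.3 and 10.6 FPKM in the basal-labelled libraries, a ratio of 1.45 (1.34 to 1.57), and at 5.98 and 6.41 FPKM in the luminal-labelled ones, a ratio of 1.07 (0.976 to 1.18). Eif2a was at 17.2 to 20.7 FPKM.

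Each eIF2 kinase answers a different stress. Eif2ak3 encodes PERK, the kinase that senses unfolded protein in the endoplasmic reticulum, and it was the only one of the 3 that differed by more than 1.5-fold. Its level was 13.9 FPKM with DMSO and 11.4 FPKM with baicalin in the basal-labelled libraries, and 7.43 and 11.8 FPKM in the luminal-labelled ones. The luminal-labelled DMSO library was the low one and the other 3 were close together. The ratios of 0.818 (0.761 to 0.879) and 1.58 (1.45 to 1.72) pointed in opposite directions. Eif2ak1, the heme-regulated kinase HRI, had ratios of 1.06 and 0.967, and Eif2ak4, the amino acid sensor GCN2, had 0.994 and 1.01. All 4 of these intervals held 1.

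The 5 eIF2B genes, which encode the exchange factor that recharges eIF2 with GTP, were all lower with baicalin in the basal-labelled libraries, by small amounts, where 49.1% of all genes tested were lower. Their median log2 change was -0.21, and the same 5 of 5 held under TPM and under centring on the median ratio. The regulatory subunit genes Eif2b1, Eif2b2 and Eif2b4 had ratios of 0.714 (0.642 to 0.795), 0.858 (0.79 to 0.931) and 0.662 (0.585 to 0.749). The catalytic subunit gene Eif2b5 was at 37.8 and 33.2 FPKM, a ratio of 0.88 (0.825 to 0.939). Eif2b3, the least abundant, had an interval that held 1. In the luminal-labelled libraries, where 54.4% of all genes were lower, 4 of the 5 were, or 3 of 5 when centred, and the exception, Eif2b3, had a ratio of 1.19 (1.05 to 1.36). Summed over the 5 genes, the level was 104.4 and 85.97 FPKM in the basal-labelled and 87.64 and 78.22 FPKM in the luminal-labelled libraries, or 0.824 and 0.892 times the DMSO level.

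The eIF3 complex, the largest initiation factor, joins the small ribosomal subunit to eIF4G and keeps the large one away. Its 14 genes were split, with 8 higher and 6 lower in the basal-labelled libraries (7 and 7 under TPM) and 6 higher and 8 lower in the luminal-labelled ones (7 and 7 when centred). Of all genes tested, 50.9% were higher and 49.1% lower by any amount in the basal-labelled libraries, and 45.6% and 54.4% in the luminal-labelled ones. The levels were uneven for genes of 1 complex. Without Eif3j2 they ran from 19.2 FPKM for Eif3j1 to 200 FPKM for Eif3a in the basal-labelled DMSO library, around a median of 52.6 FPKM over all 14, and from 10.1 to 198 FPKM in the luminal-labelled baicalin library, around 58.5 FPKM.

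Eif3f (ENSMUSG00000031029, chromosome 7, 108934417 to 108942951), which encodes a scaffold subunit with an MPN domain, had the largest change with baicalin among the eIF3 genes. It was at 49.6 FPKM with DMSO and 102 FPKM with baicalin in the basal-labelled libraries, and at 61.5 and 67.8 FPKM in the luminal-labelled ones. One library, basal-labelled with baicalin, was high. The ratio there was 2.05 (1.96 to 2.15), against 1.1 (1.05 to 1.15) in the luminal-labelled libraries, and scaling to TPM put the basal-labelled change just under the 2-fold mark. Eif3h, which encodes the other MPN domain subunit, was at 160, 193, 217 and 197 FPKM in the same order of libraries, with ratios of 1.21 (1.16 to 1.25) and 0.905 (0.875 to 0.937). The level of Eif3f relative to Eif3h was 0.31 and 0.528 in the basal-labelled and 0.283 and 0.345 in the luminal-labelled libraries.

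Eif3c, which encodes a core subunit that contacts eIF1, was higher with baicalin by nearly the same ratio in both labels. It was at 189 and 233 FPKM in the basal-labelled libraries and at 161 and 198 FPKM in the luminal-labelled ones, with ratios of 1.24 (1.21 to 1.26) and 1.23 (1.2 to 1.26). The largest subunit's gene, Eif3a, had ratios of 0.925 and 1.05, and Eif3b, which encodes the other core scaffold, had 0.777 (0.75 to 0.804) and 0.996 (0.961 to 1.03). The remaining genes, Eif3d, Eif3e, Eif3g, Eif3i, Eif3k, Eif3l and Eif3m, had ratios between 0.854 and 1.09 in both labels. Eif3j1, whose product is a loosely bound subunit, was at 19.2, 15.6, 10.8 and 10.1 FPKM, and its near-identical copy Eif3j2 at 0.783, 0.539, 1.82 and 2.14 FPKM. Their transcripts are 99.4% identical over 2379 bases, so the split of fragments between them is uncertain.

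Among the eIF1 genes, Eif1 was higher and Eif1ax lower with baicalin, each by nearly the same amount in both labels. Eif1 (chromosome 11, 100319885 to 100322096) encodes the factor that holds the scanning ribosome open until the start codon is met. It was at 204 and 286 FPKM in the basal-labelled libraries and at 151 and 212 FPKM in the luminal-labelled ones, a ratio of 1.4 in each, with intervals of 1.36 to 1.44 and 1.36 to 1.45. With baicalin it was the most abundant member in both labels. Summed with the 16 genes in the table that share a near-identical stretch with it, its ratio was 1.34 and 1.32. The highest of the 16 was Emd, a protein-coding gene rather than a pseudogene copy. It was at 21.5 and 18.5 FPKM with DMSO and baicalin in the basal-labelled and at 23.4 and 20 FPKM in the luminal-labelled libraries. Its fragments thus lower the summed ratios.

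Eif1ax, the X-linked gene for eIF1A, which works with eIF1 in scanning, was at 33.2 and 21.4 FPKM in the basal-labelled libraries and at 38.7 and 26 FPKM in the luminal-labelled ones. The ratios were 0.645 (0.611 to 0.68) and 0.672 (0.64 to 0.705). Eif1a, which encodes a nearly identical protein, was at 58.8 to 67.7 FPKM with ratios of 1.01 and 1.08, so the level of Eif1ax relative to Eif1a was 0.496 and 0.316 in the basal-labelled and 0.657 and 0.408 in the luminal-labelled libraries. Eif1ad and Eif1b had intervals that held 1 in both labels.

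Eif5 encodes the protein that makes eIF2 hydrolyse its GTP, and in cells it counters eIF1 in how strictly start codons are chosen. It was at 71.4 and 84.2 FPKM with DMSO and baicalin in the basal-labelled libraries and at 43.8 and 60.7 FPKM in the luminal-labelled ones, with ratios of 1.18 (1.15 to 1.21) and 1.39 (1.34 to 1.43). Both Eif1 and Eif5 were higher with baicalin in both labels, and the level of Eif1 relative to Eif5 was 2.86 and 3.39 in the basal-labelled and 3.44 and 3.48 in the luminal-labelled libraries. Eif5b, whose product joins the ribosomal subunits, was at 36.7 FPKM in the basal-labelled DMSO library and at 25.2, 23.6 and 24.1 FPKM in the others. Its ratio was 0.685 (0.661 to 0.711) in the basal-labelled libraries, where the DMSO library was the high one, and 1.02 (0.983 to 1.07) in the luminal-labelled ones.

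Eif5a, which encodes the hypusine-bearing factor that helps elongation and termination, was at 264, 205, 216 and 207 FPKM in the basal-labelled DMSO, basal-labelled baicalin, luminal-labelled DMSO and luminal-labelled baicalin libraries. The basal-labelled DMSO library was again the high one, with a ratio of 0.777 (0.757 to 0.798). Its paralog Eif5a2 was far lower, at 1.46, 1.78, 4.47 and 3.17 FPKM. Eif6 encodes a protein that keeps free large ribosomal subunits from joining, and it was at 54.9 and 52.2 FPKM in the basal-labelled libraries and at 31.1 and 48.4 FPKM in the luminal-labelled ones. The luminal-labelled DMSO library was low, and the ratios were 0.95 (0.902 to 1) and 1.56 (1.47 to 1.66).

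The libraries were next compared between cell labels under the same treatment. The counts past a fold mark are on the FPKM + 1 scale. On it, only 1 of 53 members, Eif5a2, was more than 2-fold higher in the luminal-labelled than in the basal-labelled DMSO library, beside 4.71% of all genes tested. No member was more than 2-fold lower, beside 3.86% of all genes. By the ratio of FPKM itself, the low genes Eif3j2 and Eif4ebp3 were also more than 2-fold higher, at 2.33 (1.56 to 3.53) and 2.36 (1.08 to 5.55). At 1.5-fold, 3 members were higher and 6 lower, beside 11.5% and 9.95% of all genes. The 6 lower ones were Eif2ak3, Eif2s1, Eif3j1, Eif5, Eif5b and Eif6. Eif5a2 had a ratio of 3.06 (2.53 to 3.71), at levels of 4.47 and 1.46 FPKM. The largest log2 difference downward was that of Eif2ak3, -0.82, followed by Eif6 with -0.80 and Eif3j1 with -0.78. All 5 eIF2B genes were lower in the luminal-labelled library, with log2 differences of -0.40 to -0.11, beside 47.5% of all genes lower by any amount, and all 5 were below 0 under both other scalings.

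With baicalin, 1 member on the FPKM + 1 scale, Eif3j2, was more than 2-fold higher in the luminal-labelled library, beside 5.24% of all genes. None was more than 2-fold lower, beside 2.99% of all genes. By the ratio of FPKM itself, Eif4e3 was also more than 2-fold higher, at 2.28 (1.84 to 2.84). Eif3j2 and Eif3j1 are nearly identical, and summed over both the ratio was 0.691, below 1, while that of Eif3j2 alone was above 1. At 1.5-fold, Eif3j2, Eif4e3 and Eif4ebp3 were higher and Eif2d, Eif3j1, Eif4a2 and Eif4ebp1 lower, beside 10.7% and 9.46% of all genes. Of the 6 genes lower in the luminal-labelled DMSO library by 1.5-fold, Eif3j1 was the only one also lower by that amount with baicalin, with a ratio of 0.645 (0.599 to 0.694), and summed with Eif3j2 its log2 difference of -0.53 no longer passed 1.5-fold. Eif2ak3 and Eif6, in contrast, had ratios of 1.03 (0.959 to 1.11) and 0.928 (0.88 to 0.979) there. These comparisons reuse the libraries of the comparisons with baicalin and are no further evidence for them. The interquartile range of the members was 0.52 on the log2 scale with DMSO and 0.26 with baicalin, beside 0.53 and 0.48 for all genes.

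**Figure D4:**
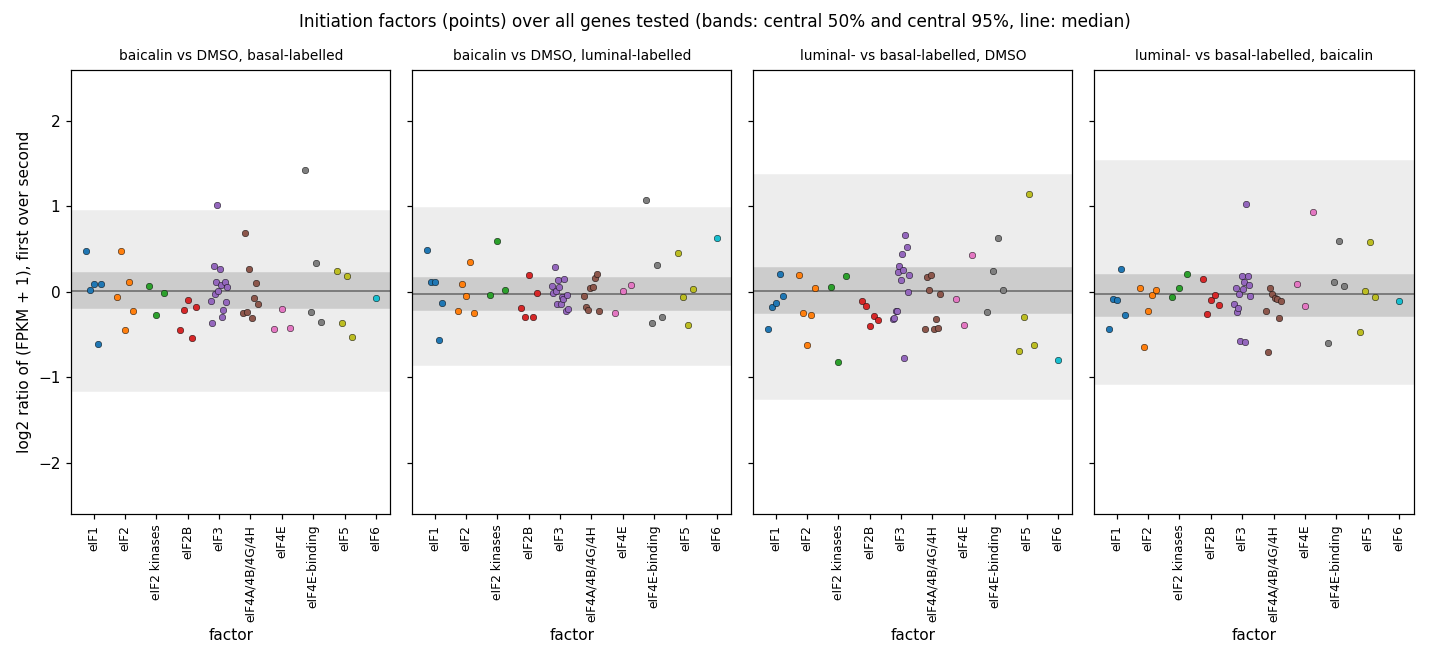
Log2 ratio of FPKM + 1 for each initiation factor gene (points, by factor) in the 4 comparisons, over the median (line), the central 50% (dark band) and the central 95% (pale band) of all genes tested. The members lie within the pale band except for Eif4ebp1 in both comparisons with baicalin and Eif3f in the basal-labelled one.

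The size of the change with baicalin was also subtracted between the cell labels. On the FPKM + 1 scale, no member differed by more than 2-fold in either direction. Of all genes, 4.41% had a higher and 2.65% a lower change by that amount in the luminal-labelled libraries. At 1.5-fold, Eif2ak3 and Eif6 had the higher change in the luminal-labelled libraries, by 0.87 and 0.70 on the log2 scale, beside 9.03% of all genes. Eif3f and Eif4a2 had the lower change there, by -0.88 and -0.87, beside 9.39% of all genes. For 8 of the 53 members the counting intervals in the 2 labels lay on opposite sides of 1, or 15.1%, beside 10.6% of all genes tested. They lay above 1 in both for 8 members, or 15.1%, beside 11.5% of all genes, and below 1 in both for 12, or 22.6%, beside 13.8%. Intervals are narrower for abundant genes, and among the 47 members of at least 5 FPKM in all 4 libraries these shares were 17%, 17% and 25.5%, beside 15.3%, 17.9% and 21% of all genes at that level.

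Other genes of translation and of the pathways that feed into it were listed beside the initiation factors. The integrated stress response is the programme that follows phosphorylation of eIF2, with the transcription factor ATF4 at its centre, and 7 of its 15 listed genes, Eif4ebp1 not counted, were more than 2-fold higher with baicalin in the basal-labelled libraries. In the luminal-labelled libraries 8 of the 15 were. Of all genes tested, 2.15% were that much higher in the basal-labelled and 2.37% in the luminal-labelled libraries. No gene of the list was more than 2-fold lower in either label, beside 3.33% and 1.59% of all genes. These counts are on the FPKM + 1 scale. They leave out Asns in the basal-labelled and Ppp1r15a in the luminal-labelled libraries, whose ratios of FPKM itself were just above 2. The medians of the 15 genes were 0.99 and 1.17 on the log2 scale, beside 0.01 and -0.02 for all genes. This list and those below were chosen with earlier results of these data known. Atf4 itself was at 141 and 224 FPKM in the basal-labelled and at 117 and 195 FPKM in the luminal-labelled libraries, with ratios of 1.59 (1.54 to 1.64) and 1.67 (1.62 to 1.73). Trib3, a pseudokinase gene induced by ATF4, was at 20.1 and 90.5 FPKM and at 4.98 and 32.2 FPKM. Chac1, which encodes an enzyme that breaks down glutathione, was at 2.86 and 14.3 FPKM and at 0.726 and 8.25 FPKM.

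The genes on this list differed widely in size of change. Ddit3, which encodes the stress factor CHOP, had ratios of 3.98 (3.53 to 4.5) and 1.94 (1.72 to 2.18). Ppp1r15a encodes GADD34, which brings a phosphatase to eIF2 and so reverses the kinases, and it had ratios of 2.43 (2.33 to 2.52) and 2.02 (1.93 to 2.12). Sesn2, a stress-induced inhibitor of mTORC1, had 4.36 (3.94 to 4.85) and 2.48 (2.27 to 2.7). Asns, the asparagine synthetase gene, had 2.01 (1.9 to 2.13) and 2.58 (2.4 to 2.77), and the secreted factor gene Gdf15 had 18.6 (15.5 to 22.5) and 6.08 (4.55 to 8.25). Atf5, a relative of Atf4, had 1.97 (1.85 to 2.09) and 4.26 (3.87 to 4.71), while Nupr1, a chromatin protein gene, had 0.964 (0.941 to 0.988) and 2.28 (2.16 to 2.41). Fgf21, a hormone gene, rested on 2 fragments in each DMSO library and reached 3.73 and 5.6 FPKM with baicalin. Eif4ebp1, also a known ATF4 target and left out of these counts, had ratios of 2.79 and 2.17. The part of ATF4 in its change was not tested.

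Of 21 genes of mTORC1 and its inputs, the pathway that phosphorylates 4E-BP1, only Rragd, which encodes a Rag GTPase, was more than 2-fold higher with baicalin. This held in both labels, with ratios of 5.98 (5.29 to 6.78) and 5.29 (4.34 to 6.49), and none was more than 2-fold lower. Of all genes tested, 2.15% and 2.37% were that much higher in the basal-labelled and luminal-labelled libraries, and 3.33% and 1.59% that much lower. The median log2 change of the 21 genes was 0.12 and 0.20. In the same order, 15 and 14 of them were higher by any amount, beside 50.9% and 45.6% of all genes. Mtor itself had ratios of 1.18 and 1.13, and the inhibitor gene Ddit4 had 1.58 (1.5 to 1.66) and 1.85 (1.74 to 1.96). Of 8 elongation genes tested, none passed 2-fold in either label, with medians of 0.17 and 0.09 on the log2 scale. Eef2, the translocation factor gene, had the largest ratio of these in the basal-labelled libraries, 1.66 (1.64 to 1.67), against 1.09 in the luminal-labelled ones, and Eef1a1 had 1.35 and 1.06.

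None of 12 release and recycling genes passed 2-fold in either label, with a median of -0.11 in each. Nor did any of 16 other initiation helpers, with medians of -0.00 and -0.04. Among the helpers, Pabpc1, which encodes the poly(A)-binding protein that contacts eIF4G, had ratios of 1.39 (1.36 to 1.41) and 1.44 (1.41 to 1.47). Mknk2, a kinase gene of eIF4E, had 1.11 in both, and Pdcd4, an inhibitor of eIF4A, had 0.852 (0.792 to 0.916) and 0.644 (0.612 to 0.677). The translation machinery lists thus held no gene past 2-fold with baicalin other than Eif4ebp1 and Eif3f, while the stress list held several in each label. Of all genes tested, 2.15% and 2.37% were more than 2-fold higher in the basal-labelled and luminal-labelled libraries, and 3.33% and 1.59% lower. The translation lists are short, so few or no genes past 2-fold in them is near these shares.

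**Figure D5:**
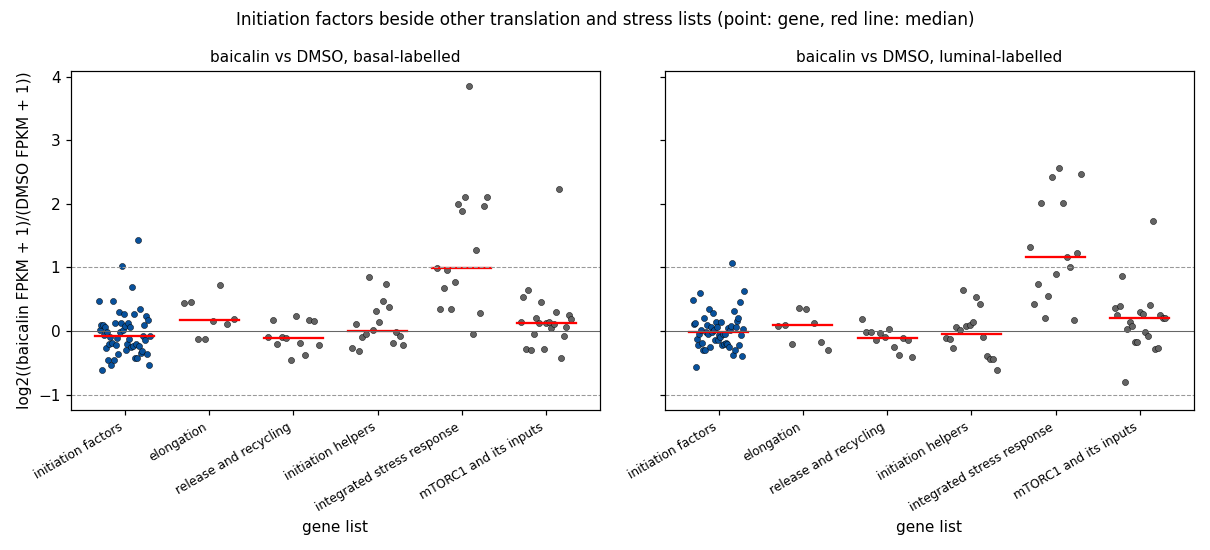
Log2 change with baicalin of each tested gene (points) in the initiation factors and 5 other gene lists, with the list median as a red line and dashed lines at 2-fold, for basal-labelled (left) and luminal-labelled (right) libraries. The medians of the translation lists lie between -0.11 and 0.17. That of the mTORC1 list is at 0.12 and 0.20, and that of the integrated stress response list at 0.99 and 1.17.

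Promoter sequence was read for the members from RefSeq on GRCm38.p6, as 250 bases before to 50 after each start. It matched 43 of the 55 members by symbol. The promoter of Eif4ebp1 was not among them. The E-box CACGTG, the site read by MYC and by other basic helix-loop-helix proteins, is its own reverse complement and stood in at least 1 promoter of 10 of the 43 members, or 23.3%. Of the 11551 tested genes with a promoter given, 11.2% held it in at least 1 promoter, and of all 27025 genes with a promoter 8.09% did. The 10 genes were Eif1b, Eif3a, Eif3f, Eif3k, Eif4a1, Eif4e, Eif4g1, Eif4h, Eif5a and Eif5a2. On either strand, TGATGNAA, a site of ATF4 type, was found in 1 member, Eif2s3x, or 2.33%, and in 2.88% of the tested and 4.51% of all genes with a promoter. TGACNNNGC, the core of the antioxidant response element, was found in 8 members, or 18.6%, and in 16.8% of the tested and 14% of all genes. TGACGTCA, the cAMP response element, was found in none of the 43, and in 3.45% of the tested and 2.03% of all genes.

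The 100 bases before a RefSeq start are shown for 4 members described above, 2 of them genes of eIF4F (Eif4e and Eif4g1), as examples. For each gene the start was picked because an E-box lies in these 100 bases. The E-box is in capitals and all else in lower case, read 5′ to 3′ on the strand of the gene. Eif3f is at chr7:108934315-108934414 on the plus strand, Eif4e at chr3:138527168-138527267 on the plus strand, Eif4g1 at chr16:20672627-20672726 on the plus strand and Eif5a at chr11:69921387-69921486 on the minus strand.
Eif3f: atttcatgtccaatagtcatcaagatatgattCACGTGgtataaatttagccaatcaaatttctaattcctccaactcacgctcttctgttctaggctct
Eif4e: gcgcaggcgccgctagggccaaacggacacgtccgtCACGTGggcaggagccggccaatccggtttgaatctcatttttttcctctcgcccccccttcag
Eif4g1: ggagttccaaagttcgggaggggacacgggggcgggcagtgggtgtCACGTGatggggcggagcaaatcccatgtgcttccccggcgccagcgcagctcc
Eif5a: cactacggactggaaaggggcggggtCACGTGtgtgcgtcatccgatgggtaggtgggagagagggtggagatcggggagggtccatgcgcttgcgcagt
The E-box begins 68 bases before the start shown for Eif3f, 64 before that of Eif4e, 54 before that of Eif4g1 and 74 before that of Eif5a. The promoters of Eif4e and Eif4g1 held a further E-box, at -228 and at 15 from the same starts. Counted from another start of Eif5a, the same E-box as the one shown lay at -185. From yet another start, a different E-box lay at -178. The basal-labelled ratios of these 4 genes, which were chosen with their changes known, were 2.05, 0.731, 0.807 and 0.777. A match in letters does not show that a factor was bound.

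Near-identical sequence bears on 22 of the 55 members, which share a stretch of at least 200 bases at 95% identity or more with another gene, 5 of them only with an overlapping or adjoining gene. The copy with the highest level was the pseudogene Eif4a-ps4, 99.9% identical to Eif4a1 over 1218 bases, listed at 167, 146, 119 and 122 FPKM in the basal-labelled DMSO, basal-labelled baicalin, luminal-labelled DMSO and luminal-labelled baicalin libraries. Summed with its copies, Eif4a1 had ratios of 0.847 and 0.972, close to those of the gene alone, 0.842 and 0.964. Gm9892, a copy of Eif2s2, was at 31.1 to 41.4 FPKM, and the summed ratios of 1.08 and 1.27 were near those of Eif2s2, 1.09 and 1.28. How the counting treated reads that map to several places is not given in the sources used here. Nor is its strand setting, so genes with exons on the opposite strand of a member are uncertain too. The largest such overlaps were Eif3d with Gm17638, over 43.3% of its exon bases, Eif3j1 with Spg11, over 19%, and Eif5b with Rev1, over 16.8%. On the same strand, 67.3% of the exon bases of Eif4ebp3 lie in exons of AC115631.1.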

How the data were processed

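The data were 4 RNA sequencing libraries of sorted mouse mammary cells in 3D Matrigel culture, 1 per cell label and treatment. Per the study's methods, mRNA was selected on oligo (dT) beads for stranded libraries, and reads were aligned with HISAT2 to GRCm38 and counted with featureCounts 1.5.0 on Ensembl release 94. The submitters' processing notes also name Bowtie 0.12.2 and the builds mm8 and GRCm38, with no role given. The authors deposited FPKM for 54446 genes, genes at 0 included. FPKM shows each gene relative to the rest of its library. The libraries of hormone treatment were not analysed here.

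Exon lengths came from GENCODE mouse release M21 for 54409 genes. Each FPKM times the exon length was a multiple of the value of 1 fragment, from which depth was found, and 98.2% to 98.5% of the genes with up to 20 fragments came out within 0.05 of a whole number. These fragments gave Clopper-Pearson intervals of 95% and no count test, because each condition has 1 library. Changes were log2((FPKM + 1)/(FPKM + 1)) on genes above 0 in all 4 libraries, and past 2-fold or 1.5-fold is a rule of size, not a test. Genes with at most 3 fragments in a library got no ratio. The study's t-test and its threshold on P could not be repeated.

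The members, the groups, the other gene lists and the rule for naming genes were chosen with earlier results of these data known. Full values went to members past 1.5-fold in any comparison with at least 5 FPKM in a library, to the most abundant member of each group and to 16 well-known members. Others were given by range and count, with a few more named after their values were seen. From the pathway lists, genes past 2-fold with baicalin at 5 FPKM or more were named, with 11 set by name. Of 17 listed initiation helpers, 16 matched by symbol. Alternatives were a pseudocount of 0.1 or none, no filter on low FPKM, at least 1 FPKM, at least 10 fragments, TPM, centring on the median ratio, leaving out members with near-identical copies, and a 1.5-fold mark. Copies were found with minimap2 2.31-r1302, and summing them with their member was added after seeing the data. The recovery of depth and the log2 changes were checked on simulated libraries in which 200 genes were changed. The counting intervals, the copies and the promoter matches were not part of that check. The software was Python 3.11.15 with scipy 1.17.1, pandas 2.3.3, numpy 2.4.6 and, for plots, matplotlib 3.10.9.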

Additional observations from a re-analysis of the deposited data

Results flagged for a closer look

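For 8 initiation factor genes the FPKM ratio of baicalin to DMSO lay above 1 in the libraries of one cell label and below 1 in those of the other, with neither 95% counting interval holding 1. These are 15.1% of the 53 members, beside 10.6% of all genes tested. Intervals are narrower for abundant genes. Among members of at least 5 FPKM in all 4 libraries the share was 17%, beside 15.3% of all genes at that level. The difference between labels was not tested, since each condition has 1 library, and the intervals cover counting error only. As luminal-labelled minus basal-labelled change on the log2 scale, the largest differences were those of the PERK gene Eif2ak3, 0.87, and of the helicase gene Eif4a2, -0.87. The scaffold gene Eif4g1 differed by 0.37 and its relative Eif4g2 by 0.24. Of the eIF3 genes, Eif3h differed by -0.41, Eif3k by -0.34, Eif3e by -0.26 and Eif3a by 0.18. The basal-labelled ratios were 0.818 for Eif2ak3 and 1.62 for Eif4a2, and the luminal-labelled ones 1.58 and 0.881. The summed basal markers were at 2150 and 757 FPKM with DMSO and baicalin in the basal-labelled libraries and at 5680 and 7500 FPKM in the luminal-labelled ones, and their part in these differences was not tested.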

How the results depend on the processing

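No paired analysis was possible because each condition has 1 library. For the 24 members named by rule, 725 of the alternative values of a log2 difference moved by less than the counting error, 39 moved by more, most of them under TPM between cell labels, and none past 2-fold changed sign. The counts of members past 2-fold were small, so 1 gene could move them. For baicalin in the basal-labelled libraries, 1 member was higher under TPM, where Eif3f was just under the mark, and at 1.5-fold 1 was lower. In the luminal-labelled libraries, 2 were higher with no pseudocount and 3 at 1.5-fold. For the DMSO libraries compared by label, 3 were higher with a pseudocount of 0.1, with none, and at 1.5-fold, 6 were lower at 1.5-fold, and the median under TPM was -0.22. With baicalin, 2 were higher with a pseudocount of 0.1 and under TPM, 3 with none and at 1.5-fold, and 0 with at least 1 FPKM or without members that have near-identical copies, and 4 were lower at 1.5-fold. For the difference of the changes, 1 was higher with no pseudocount, the low gene Eif2c5, and at 1.5-fold 2 were higher and 2 lower. The median change with baicalin in the luminal-labelled libraries, -0.01, was near 0 under each alternative, between -0.03 and 0.03. Under TPM the direction differed for 2 of 53 members with baicalin in the basal-labelled libraries, for 0 in the luminal-labelled ones, and for 6 and 7 between cell labels with DMSO and baicalin. Depth limits little here except for Eif4ebp3, Eif3j2 and Eif2c5, and variation between cultures was not measured.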
